A study of Mus musculus with 3 samples.

Results

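Kdr, Flt1, Tek, Tie1, Pecam1, Cdh5 and Eng, 7 genes of receptors and surface proteins of the endothelium, and Vegfa, the gene of the growth factor that endothelium follows, were read in mouse retina at postnatal day 7. Every probe set whose only gene in the platform annotation was one of these 8 was taken, which gave 10 probe sets of the 12422 on the array that were not controls. Flt1 and Tie1 had 2 probe sets each and the other 6 genes had 1. Total RNA had been profiled on Affymetrix MG-U74Av2 arrays, on which a probe set is a group of short oligonucleotides read as 1 intensity. There were 3 samples in 1 group, called pool 1, pool 2 and pool 3 below, where the numbers are names only. Each combined the neural retinas of 3 to 4 wild-type mice, which were littermates of Rp1-/- animals, in a mixed background of 129/SvEv and C57BL/6, with retinas taken between 1 and 2 pm. With a single age, genotype and tissue, no groups could be compared, and the data answer which of these genes gave signal in the postnatal retina and how far their values differed between pools. The retinas were pooled before RNA was made, so the spread between animals is not visible, and the number of arrays limits the precision of every value. In such whole-tissue RNA, fewer cells of a type and less RNA per cell cannot be told apart.

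The retina of a newborn mouse has few vessels of its own. During the first postnatal weeks a plexus grows from the optic nerve head across the inner surface over a template of astrocytes, and branches then dive to form deeper layers, while the hyaloid vessels that fed the embryonic eye regress. Astrocytes, Müller glia and neurons that lack oxygen secrete VEGF-A, which endothelial tip cells sense through the receptor that Kdr encodes. The receptor from Flt1 binds VEGF-A tightly and also acts as a decoy, and the receptors from Tek and Tie1 take part in angiopoietin signalling, which steadies vessels. Pecam1 and Cdh5 encode adhesion proteins of endothelial contacts, and Eng a co-receptor for TGF-beta family ligands. Kdr is known from retinal neurons and their progenitors too, and Pecam1 from platelets and leukocytes.

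Of the 10 probe sets, 3 gave signal above background in all 3 pools, those of Kdr, Eng and Vegfa. Background was set by a bar in each pool, the 90th percentile of 62 genes known from other organs, among them liver, gut and testis. Of these 62, 3 genes, Hp, Lhb and Krt10, were themselves above the bar in all pools. Another, Cela1, was at 73.0, 426.8 and 694.9 in pools 1, 2 and 3 and above the bar in pools 2 and 3 only. The bar stood at 250.5, 262.6 and 294.0 in pools 1, 2 and 3, on intensities scaled to a common median. Among all 12422 probe sets 40.3% passed it in every pool, so that 3 of 10 is not above the share of the array. By gene, with 1 probe set for each, 3 of 8 passed against 47.0% of 8251 genes. At least 1 pool was passed by 5 of 10, where 51.7% of all probe sets did so: Pecam1 passed in 2 pools and 1 probe set of Flt1 in 1 pool, while Tek, Tie1, Cdh5 and the other Flt1 probe set passed in none. A value under the bar is not a measured level and does not show that the gene was silent.

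**Figure D1:**
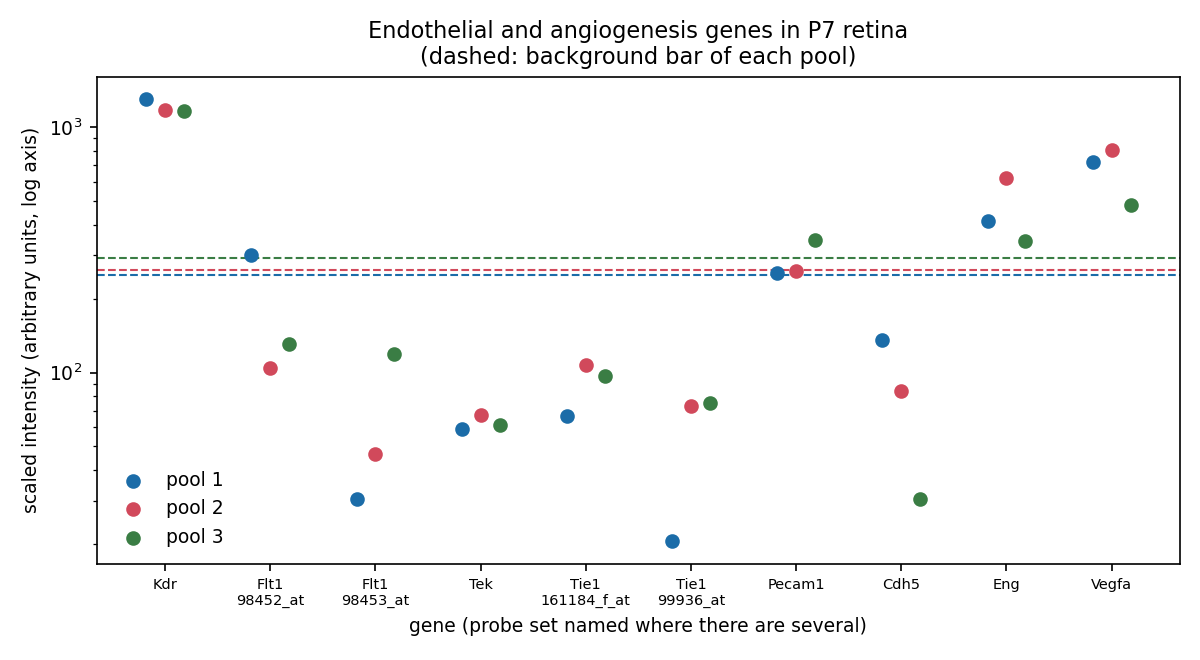
Scaled intensity (log axis) of the 10 probe sets in each pool, 1 point per pool, with the background bar of each pool as a dashed line in the same colour. Kdr, Eng and Vegfa lie above the lines in all 3 pools. Pecam1 lies close to the lines in pools 1 and 2 and above the line in pool 3. The other probe sets lie below with 1 exception, Flt1 98452_at in pool 1 at 300.2.

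The endothelial label was set beside 15 markers, among them the 7 receptor and surface genes, which cannot check their own label. Of these markers 12 were measured, and Kdr and Eng were the 2 above the bar in all pools, where 47.0% of all genes were. Pecam1 and Cldn5 passed in 2 pools and Flt1 in 1. The measured markers that are not members, Cldn5, Emcn, Icam2, Vwf and Cd34, included none above the bar in all pools. Tie1, Cdh5, Icam2 and Cd34 were at or below the floor of 42.2 in at least 1 pool, the level under which intensities were treated as having no order. No marker was listed at 0. The summed intensity of the 12 was 3084, 2974 and 2611 in pools 1, 2 and 3. This sum includes values under the bar and so is not a measured level of endothelium. Most of the defining endothelial markers were thus not above background in all pools here.

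The VEGF receptor genes lay on opposite sides of the bar. Kdr had intensities of 1303, 1177 and 1168 in pools 1, 2 and 3, a mean of 1216 ± 75.6 (SD, n = 3). All 3 values were over the bar by a wide margin and lay close together, the highest 1.12-fold above the lowest. Flt1 was read by 98452_at at 300.2, 104.1 and 130.1, and by 98453_at at 30.6, 46.6 and 119.4. The first was above background in pool 1 alone and the second in no pool. For the first, pool 1 was at least 1.14-fold higher than pool 2 and at least 1.02-fold higher than pool 3, bounds set by the bars of those pools. With the 95th percentile of the unrelated genes as the bar, Flt1 passed in no pool and these bounds no longer hold. Since all other values of both probe sets lie under the bar, whether they follow each other cannot be read. The platform annotation lists them under separate sequence records, and which transcript form each one reads was not examined here.

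The start regions of this pair, on chromosome 5, are printed to show the sequence from which a gene with signal and its paralog without clear signal begin. The windows run from 250 bases before the annotated start to 50 after it, come from RefSeq on build GRCm38.p6, and were found for 6 of the 8 genes, Pecam1 and Cdh5 being the others. Capitals mark GGAA or its complement TTCC, the core that ETS family factors, among them regulators of endothelial genes, recognise.
Kdr, chr5:75978406-75978705, minus strand: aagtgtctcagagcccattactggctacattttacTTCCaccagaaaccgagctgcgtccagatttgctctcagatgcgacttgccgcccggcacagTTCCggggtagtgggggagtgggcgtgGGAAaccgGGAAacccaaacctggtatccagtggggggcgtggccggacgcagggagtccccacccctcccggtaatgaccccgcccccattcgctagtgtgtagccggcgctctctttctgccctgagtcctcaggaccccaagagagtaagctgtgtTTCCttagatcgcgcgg
Flt1, chr5:147725962-147726261, minus strand: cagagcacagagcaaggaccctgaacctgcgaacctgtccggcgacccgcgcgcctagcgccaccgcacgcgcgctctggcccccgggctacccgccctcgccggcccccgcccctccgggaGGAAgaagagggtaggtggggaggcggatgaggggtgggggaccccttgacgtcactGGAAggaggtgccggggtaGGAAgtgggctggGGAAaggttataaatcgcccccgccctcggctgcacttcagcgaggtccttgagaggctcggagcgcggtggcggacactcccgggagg
The Kdr window held 5 matches to GGAA on both strands and the Flt1 window 4. Such matches are common: 96.0% of 32851 windows of this length held at least 1, 28.6% held 5 or more and 46.3% held 4 or more. GGGCGG, the GC box bound by Sp1-type factors, was matched 2 times in Kdr and 3 times in Flt1, counting its complement CCGCCC, and 35.7% of all windows held it. None of the GGAA matches overlapped a GC box. TATAAA, the TATA box, was matched in Flt1 alone of this pair, at -31 from the start, and 13.6% of windows held it on either strand. Both windows were rich in G and C, at 60.7% for Kdr and 70.7% for Flt1, where the median window had 52.7%. These matches are descriptions of letters and were not tied to the intensities.

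The angiopoietin receptor genes gave no signal above background. Tek was at 58.6, 67.3 and 61.3 in pools 1, 2 and 3, values that lay close together and well under the bar. Tie1 was read by 99936_at at 20.5, 72.8 and 75.2 and by 161184_f_at, a probe set of a type that can be shared by related transcripts, at 66.3, 106.9 and 96.5. Both Tie1 probe sets were lowest in pool 1, but since every value was under the bar no fold is given. The Tie1 window in the RefSeq table held 9 matches to GGAA, a number that 1.6% of windows reached or passed, and the Tek window held 2, which 84.6% reached or passed. Neither window held a GC box or a TATA box.

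Of the genes of endothelial contacts, Pecam1 passed the bar in 2 pools and Cdh5 in none. Pecam1, which encodes the adhesion molecule CD31, was at 254.1, 258.4 and 346.1, a mean of 286.2 ± 51.9 (SD, n = 3). It was just above the bar in pool 1, just below it in pool 2 and above it in pool 3, where it was 1.36-fold higher than in pool 1. Cdh5, the gene of VE-cadherin, was at 136.3, 84.1 and 30.6 and so under the bar in every pool. It was lowest in pool 3, where Pecam1 was highest, though the values of Cdh5 are not measured levels. A lower bar, the 75th percentile of the unrelated genes, added Pecam1 to those above background and none of Cdh5, Tek, Tie1 and Flt1.

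Eng and Vegfa were above background in every pool, and both were lowest in pool 3. Eng was at 413.2, 621.6 and 343.6 in pools 1, 2 and 3, a mean of 459.5 ± 144.7 (SD, n = 3). Its highest pool was 1.81-fold above its lowest, and 1.20-fold when pool 2 was left out. Eng passed the bar in pool 3 by a small margin, and it no longer passed there when the 95th percentile of the unrelated genes was taken. Vegfa was at 719.1, 810.0 and 480.2, a mean of 669.7 ± 170.3 (SD, n = 3). Pools 1 and 2 lay near each other, and pool 3 was 1.69-fold below pool 2; without pool 3 the range was 1.13-fold. Without scaling between arrays pool 1 rather than pool 2 was the highest for Vegfa.

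The start regions of Eng, on chromosome 2, and Vegfa, on chromosome 17, are shown as those of the other genes with signal in all pools, with capitals as before. For Vegfa, which has 2 starts in the table, the upstream one was taken.
Eng, chr2:32646345-32646644, plus strand: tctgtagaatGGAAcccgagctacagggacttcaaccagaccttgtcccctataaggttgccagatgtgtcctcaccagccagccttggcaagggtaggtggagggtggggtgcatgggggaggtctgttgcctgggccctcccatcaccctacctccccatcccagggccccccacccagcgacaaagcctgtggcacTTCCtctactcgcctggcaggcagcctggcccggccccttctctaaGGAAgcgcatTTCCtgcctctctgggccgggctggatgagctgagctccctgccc
Vegfa, chr17:46032328-46032627, minus strand: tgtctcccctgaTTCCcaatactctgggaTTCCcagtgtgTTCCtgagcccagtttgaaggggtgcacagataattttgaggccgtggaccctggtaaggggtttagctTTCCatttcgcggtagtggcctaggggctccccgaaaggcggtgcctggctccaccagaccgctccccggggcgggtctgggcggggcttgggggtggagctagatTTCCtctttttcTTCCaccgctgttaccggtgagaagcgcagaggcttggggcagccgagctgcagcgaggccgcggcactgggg
Eng held 4 matches to GGAA and Vegfa 6, the latter a number reached or passed in 15.7% of windows. Vegfa held 2 GC boxes, at -72 and -62, and Eng none. ACGTG, the core through which hypoxia-inducible factors bind, was in none of the 6 windows searched and in 19.6% of all windows, counted on both strands. The absence of these letters from a window of 300 bases says nothing about the factor.

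Of the 4 members bright enough to be tested, 0 were called as varying between pools more than other probe sets of their brightness. The test set the variance of each of the 6211 brighter probe sets against limma's prior for its level, with Benjamini-Hochberg adjustment over all of them, and called 1.34%. The limma adjusted p was 0.996 for Kdr, 0.992 for Pecam1, 0.983 for Eng and 0.992 for Vegfa, and the count at an unadjusted p under 0.05 was 0 as well, where 6.76% of all tested probe sets had one. Kdr had a log2 SD of 0.09, at the 7.50th percentile of those tested, where the median was 0.26. This position rests on the scaling: its SD was 0.16 without scaling and 0.18 after quantile normalisation, at the 29.5th and 34.5th percentiles. Eng and Vegfa had log2 SDs of 0.44 and 0.40, at the 85.0th and 79.6th percentiles. With 4 probe sets, a count of 0 is no sign that they differ from the array, and an adjusted p of this size does not show that the values were the same in every pool. The other 6 probe sets were too dim to be tested.

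**Figure D2:**
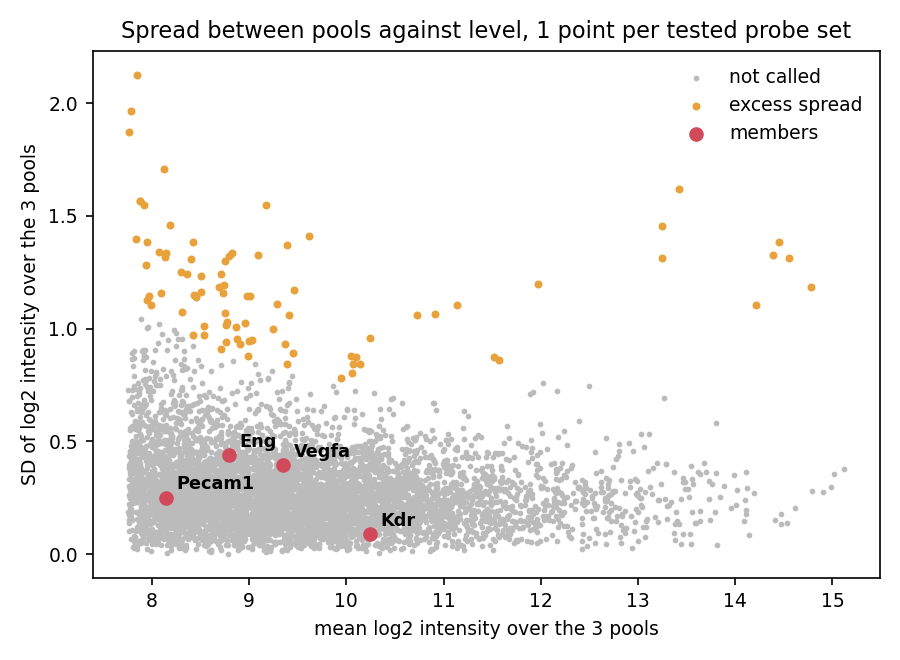
SD of the log2 intensity over the 3 pools against its mean, 1 point for each of 6211 probe sets tested, with the 83 of excess spread in orange and the 4 members tested in red. Kdr lies at an SD of 0.09 (0.16 without scaling), and Eng and Vegfa lie inside the grey cloud at 0.44 and 0.40, all on the scale of arrays scaled to a common median.

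Signal of other tissue and a sign of RNA quality differed between the pools. Lens genes above background had a median log2 deviation from their mean of -1.55, 0.70 and 0.84 in pools 1, 2 and 3. All 8 tested lens genes were called for excess spread in the reported setting. The 3' to 5' ratio of the Actb control transcript, a sign of RNA length, was 1.81, 1.27 and 1.30. That of Gapdh was 0.874, 0.788 and 0.812. Kdr deviated by 0.10, -0.04 and -0.06 and was thus highest in pool 1, as both ratios were. Hba-a1, a red cell globin gene, was at 2914, 6705 and 2821, highest in pool 2 as Eng was, and as Vegfa was except without scaling, where Vegfa was highest in pool 1. It was the only 1 of 9 measured blood and platelet genes above the bar in all pools, where 47.0% of all genes were. Eng deviated by -0.11, 0.48 and -0.37 and Vegfa by 0.14, 0.31 and -0.45, where the median of all genes above the bar was at -0.04, 0.13 and -0.08. The part of blood, lens or RNA quality in the values of Kdr, Eng and Vegfa was not tested. The summed intensity of the 9 blood and platelet genes was 3510, 7278 and 3622. Over the 8 members the median log2 deviation was 0.01, 0.11 and -0.18, against -0.01, 0.05 and -0.03 over all 8251 genes. These sums and medians include values under the bar, which are not measured levels.

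**Figure D3:**
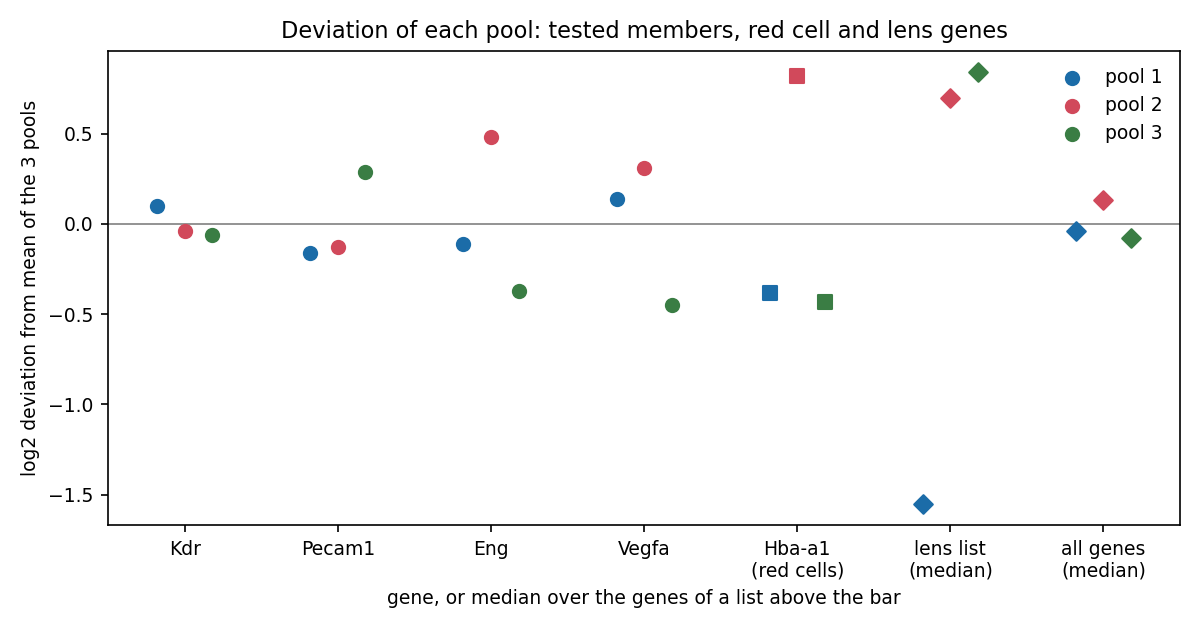
Log2 deviation of each pool from the mean of the 3 pools for the 4 members tested, for Hba-a1, and as a median over the lens genes and over all genes above the bar. Lens genes are low in pool 1 at -1.55 and Hba-a1 is high in pool 2, Eng and Vegfa are lowest in pool 3, and the 3 points of Kdr lie within 0.10 of zero.

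The pathways around these genes were covered by lists of ligands, receptors and vessel components. Each count below stands beside 47.0% of all genes above the bar in all pools, and no list was tested against that share. Of 11 measured genes of the VEGF and angiopoietin list, 2 were above the bar in all pools: Vegfb, a ligand of the Flt1 receptor, at 649.9, 500.5 and 693.7, and Nrp1, a co-receptor for VEGF-A that also guides axons, at 401.6, 418.8 and 443.5. The ligand genes Vegfc, Vegfd, Pgf, Angpt1 and Angpt2 and the receptor gene Flt4 were not; Angpt2, the antagonist ligand made by sprouting endothelium, came nearest with 176.3, 258.1 and 175.3. In the Notch and ephrin list 4 of 7 passed, all 4 of which have roles in neural cells too: Dll1 at 547.0 ± 115.6, Notch1 at 1282 ± 472.7, Hey1 at 474.5 ± 79.4 and Efnb2 at 1125 ± 154.4 (SD, n = 3). Notch4, the endothelial Notch receptor gene of that list, was at 88.0, 84.3 and 131.1 and did not pass. Among TGF-beta, BMP and norrin genes 4 of 13 passed, with the signal transducers Smad1 at 893.5 ± 42.5 and Smad4 at 1944 ± 104.9, the BMP target Id3 at 562.5 ± 113.6 and Fzd4, the norrin receptor gene needed for retinal vessels, at 541.7 ± 109.6 (SD, n = 3). Ndp, which encodes norrin itself, passed in pools 1 and 2 (344.1 and 432.1) and not in pool 3 (269.4), and Acvrl1, the partner receptor gene of Eng, passed by its chosen probe set only in pool 3, at 387.1 against 239.8 and 235.2 in the others. Another probe set of Acvrl1, 100450_r_at, was above the bar in every pool at 328.8, 318.3 and 348.3, and 100449_g_at in none, so its probe sets disagree. Those of Fzd4 disagree as well: its value came from a probe set of the shared type, and 95771_i_at and 95772_r_at were above the bar in no pool. Likewise 161634_r_at of Dll1 was above the bar in no pool, and 92773_at of Nrp1 in pool 1 alone. The genes named here as not passing were singled out after their values were seen.

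Among genes more specific to vessel walls, few passed the bar. Of 27 measured genes on a list of other endothelial genes, 3 passed in all pools: the adhesion gene Mcam at 381.5, 386.7 and 389.4, and the transcription factor genes Lmo2 at 277.3, 322.3 and 435.5 and Gata2 at 261.3, 269.3 and 376.2. This share, 11.1%, stands beside 47.0% of all genes. The count depended on the bar: it was 0 of 27 with the 95th percentile and 7 of 27 with the 75th. Of all genes, 40% and 62.8% passed at these bars. By other probe sets, Gata2 (161820_f_at) passed in no pool and Lmo2 (93666_at) in 2 pools. Cldn5, the tight junction gene of barrier endothelium, was at 289.8, 296.2 and 242.1 and missed the bar in pool 3, while Vwf was at 97.0, 90.3 and 113.3. None of 13 measured pericyte and smooth muscle genes passed in all pools, or 4 of 13 with the 75th percentile as the bar, and Pdgfrb, the pericyte receptor gene, was at 61.2, 53.6 and 77.6. The defining smooth muscle markers Acta2, Myh11 and Des were at or below the floor in at least 1 pool.

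Barrier, basement membrane and hypoxia genes are expressed in many cell types. For barrier and transport genes 5 of 9 were above the bar, a share of 55.6% beside 47.0% of all genes. Among them were the glucose transporter gene Slc2a1 at 1378 ± 251.2, the junction scaffold gene Tjp1 at 1285 ± 411.1, the amino acid transporter gene Slc7a5 at 1592 ± 194.2 and Itm2a at 465.3 ± 34.7 (SD, n = 3). Another probe set of Tjp1, 162298_r_at, was above the bar in no pool. Tfrc was not counted, but its probe set 103958_g_at was above the bar in every pool. The vessel basement membrane list had 5 of 15, a share of 33.3% beside 47.0% of all genes. Among them were both chains of type IV collagen, Col4a1 at 1263 ± 182.6 and Col4a2 at 1116 ± 172.1 (SD, n = 3). Sparc at 1514 ± 430.9 and fibronectin, Fn1, at 739.7 ± 113.9 (SD, n = 3) passed too. Lamc1 and Itgav were not counted, but their probe sets 161706_f_at and 104386_f_at were above the bar in every pool. Of the hypoxia response list, to which Vegfa is related as a target of the same factors, 12 of 19 passed, or 63.2% beside 47.0%, a difference not tested. Among them were Hif1a, the oxygen-regulated subunit, at 12764 ± 1249 from a probe set of the shared type, the oxygen sensor gene Egln1 at 1147 ± 19.98 and the glycolytic gene Pgk1 at 6036 ± 199.6 (SD, n = 3). Epas1, the related subunit gene known from endothelium, was at 115.3, 165.9 and 152.9 and did not pass. It and Cldn5, Vwf and Pdgfrb were named for their known role in vessels.

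**Figure D4:**
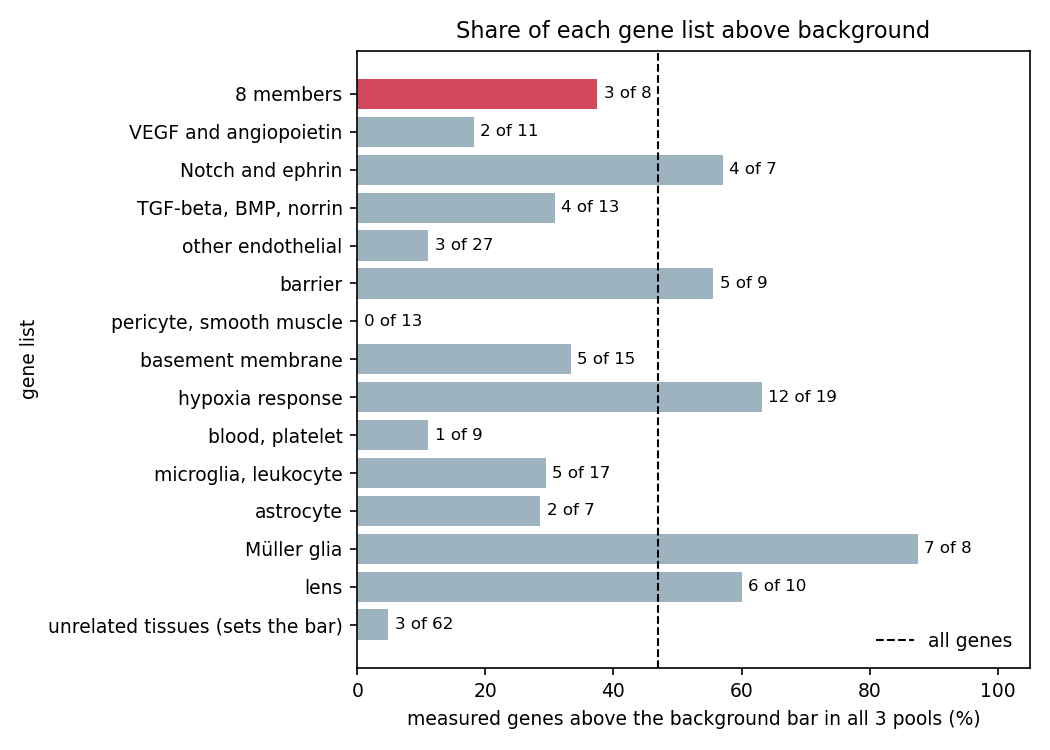
Percentage of the measured genes of each list above the background bar in all 3 pools, with the counts beside the bars and the share of all genes, 47.0%, as a dashed line. The 8 members stand at 3 of 8, other endothelial genes at 3 of 27 and pericyte and smooth muscle genes at 0 of 13.

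Cell types that could carry member transcripts or make VEGF-A were also read, with 47.0% of all genes above the bar as the share beside each count. The microglia and leukocyte list had 5 of 17 genes above the bar, among them Cx3cr1 at 445.8 ± 116.7, C1qa at 365.4 ± 36.7, C1qc at 569.3 ± 158.1 and Cd14 at 498.0 ± 128.0 (SD, n = 3), while Ptprc, the common leukocyte antigen gene, was at 8.85, 12.5 and 12.0. C1qb and Laptm5 were not counted, but their probe sets 162276_i_at and 161819_f_at were above the bar in every pool. Pf4, a platelet gene, was at 24.0, 34.3 and 89.98. Of the astrocyte list 2 of 7 passed, Pdgfra, a marker of the astrocytes of the vessel template, at 942.9 ± 225.2 and Gja1, a gap junction gene, at 564.0 ± 34.5 (SD, n = 3). Their other probe sets disagree: for Pdgfra, 160332_at passed in pool 3 alone and 161202_r_at in no pool. For Gja1, the value came from a probe set of the shared type, and 100065_r_at passed in no pool. Gfap, the intermediate filament gene of astrocytes, was at 52.2, 82.3 and 46.8 by its chosen probe set, while another, 94144_g_at, was at 207.0, 160.1 and 449.0 and passed the bar in pool 3 alone. The Müller glia list had 7 of 8, including Rlbp1 at 2900 ± 419.3, Glul at 411.9 ± 26.0, Dkk3 at 2770 ± 636.3 and Car2 at 5294 ± 1195 (SD, n = 3). Vim, also on that list, was at 92.5, 82.0 and 225.1 in pools 1, 2 and 3 and passed in no pool. Ptprc, Pf4, Gfap and Vim were named as defining markers, outside the rule for named genes. Of the genes of these 3 lists that were bright enough to be tested, 6 microglia and leukocyte, 2 astrocyte and 7 Müller glia genes, 0 were called for excess spread. List medians of log2 deviation were also taken over genes above the bar, the basis used for the lens. Leaving out the members, the lens and the unrelated tissues, they went from -0.38 to 0.01 in pool 1, -0.14 to 0.82 in pool 2 and -0.43 to 0.34 in pool 3. Hba-a1 alone, as the single blood gene, was at -0.38, 0.82 and -0.43. The members, here Kdr, Eng and Vegfa, were at 0.10, 0.31 and -0.37, and the lens at -1.55, 0.70 and 0.84. Other endothelial genes were at -0.19, -0.07 and 0.34, from 3 genes. Which of these cells the signal of Kdr, Eng, Pecam1 and Vegfa came from was not tested.

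Likeness to other genes could be described over 3 pools only, which hold little pattern, and no correlation was computed. Among 3873 other genes above the bar, those with log2 deviations nearest to Kdr were Ptch1, Ccna2 and BC005537, at distances of 0.0049, 0.014 and 0.014. As many as 167 genes were within 0.1 of Kdr. The nearest to Eng were Pgm1, Ubxn1 and Dicer1 at 0.019, 0.030 and 0.033, with 45 genes within 0.1, and the nearest to Vegfa were Ino80e, Tpgs1 and Cd47 at 0.0087, 0.014 and 0.020, with 44 genes within 0.1.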

How the data were processed

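The values deposited by the authors were intensities per probe set on a linear scale, 1 column per array. For the software that made them, and for background correction, the sources used here give nothing. The authors had scaled these intensities array by array: leaving out the lowest and highest 2%, the deposited means came to 500.3, 500.0 and 500.0 in pools 1, 2 and 3. The array type comes from the titles of the samples. The labels do not say how the pools were separated beyond the mice in each, so p-values describe only the spread between these arrays, which may in part be technical.

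Of 12488 probe sets, 66 controls were left out. Symbols came from the platform annotation and were updated by gene ID with RefSeq names of GRCm38.p6: 10833 probe sets had 1 gene, 396 several and 1193 were unnamed here, and 10817 were found by gene ID. A gene was read by 1 probe set, preferring names without a letter suffix and then the highest mean. For the members all probe sets are given. Each array was scaled to the mean of the 3 medians (a log2 shift of -0.06, 0.12 and -0.06). A floor at the 20th percentile of these values, 42.2, was applied before taking log2.

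Excess spread was tested with limma 3.58.1 in R 4.3.3. The variance over the 3 arrays of the 50% of probe sets with the highest mean was set against squeezeVar's robust prior with the mean level as covariate, at its highest prior degrees of freedom. Upper-tail p-values were adjusted by Benjamini-Hochberg over these probe sets, with 0.05 as the threshold. The test was checked on data simulated from these 6211 probe sets, with 200 changed in 1 array over 10 runs. Most 2-fold changes were missed there and most larger ones found, so the test is of little use for changes the size of those in the members.

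The members and lists were chosen with earlier results of these data known. The rule for named genes took all member probe sets, the first 4 genes above the bar in the written order of each list, every list gene with excess spread, and for each member above the bar the 3 genes with the smallest Euclidean distance between log2 deviations. The lens genes and the genes of unrelated tissues, which set the bar, are given as lists, except for Hp, Lhb, Krt10 and Cela1. Cela1 was called for excess spread in the reported setting. Promoter windows and motif shares came from a RefSeq table of GRCm38.p6.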

Additional observations from a re-analysis of the deposited data

How the results depend on the processing

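The number of member probe sets above the bar was 3 in the reported setting, 4 with the 75th percentile as the bar (Pecam1 added), 2 with the 95th (Eng lost), and 3 to 4 over the fits that drop 1 pool, Pecam1 being added without pool 2. The share of all probe sets moved too, from 40.3% in the reported setting to 56.2% with the 75th percentile and 33.7% with the 95th. Scaling cannot change these counts, because the bar moves with its array. The number of members with excess spread was 0 under every alternative run, but so few probe sets were called in some that this says little: 6 of 6211 without scaling, 6 after quantile normalisation and 0 of 12422 without the filter on dim probe sets. With such totals, the 8 lens genes called in the reported setting cannot all have been called in these. The lowest adjusted p of a member was 0.266 without the filter, and 0.978 to 0.996 under the others. With the 75th percentile as the bar, 4 VEGF and angiopoietin genes, 9 TGF-beta, BMP and norrin genes, 7 other endothelial genes, 4 pericyte and smooth muscle genes and 8 microglia and leukocyte genes passed. With the 95th, 0 other endothelial genes and 1 microglia and leukocyte gene passed. Of all genes, 62.8% passed with the 75th percentile and 40% with the 95th. When any probe set of a gene could count, 6 barrier, 7 basement membrane and 7 microglia and leukocyte genes passed. On that basis 5 TGF-beta, BMP and norrin genes and 7 lens genes passed, and the members and the other lists kept their counts. The share of all genes on that basis was not computed. The range of Kdr between pools was 1.25-fold without scaling and 1.27-fold after quantile normalisation, with pool 2 and not pool 3 the lowest in both. Leaving out each pool gave ranges of 1.01 to 1.12 for Kdr, 1.02 to 1.36 for Pecam1, 1.20 to 1.81 for Eng and 1.13 to 1.69 for Vegfa, the lowest value following from dropping 1 of the extreme pools. Probe sets above the bar in fewer than 2 pools, those of Flt1, Tek, Tie1 and Cdh5, have no measured range and none is given here. The cause of the other changes was not tested. No paired analysis was possible because there is 1 group. Values near the bar, such as those of Pecam1 and of Eng in pool 3, are limited by signal over background.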
